A study of Mus musculus with 16 samples.

Results

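The 9 genes described here mark the main classes of inhibitory interneuron, and were followed in the hippocampus of mice given beta-sitosterol or vehicle. They are Pvalb, Sst, Vip, Npy, Cck, Calb2, Reln, Lhx6 and Nos1. The genes were taken by name from the table of read counts, each through its Ensembl identifier, and make up 9 of 46603 gene identifiers in that table. All 9 passed the filter on low counts that left 17055 genes for testing. The mice were wild-type animals of the inbred strain C57BL/6. They received an intraperitoneal injection of beta-sitosterol, a plant sterol that resembles cholesterol, at 100 mg/kg, or of vehicle. Hippocampi were taken 1 h or 6 h later, and mRNA libraries were sequenced from 4 mice per group. The groups were beta-sitosterol at 1 h (mice 6 to 9), vehicle at 1 h (mice 2 to 5), beta-sitosterol at 6 h (mice 17 to 20) and vehicle at 6 h (mice 11 to 14). No untreated mice enter the comparisons, so every group carries an injection. The age and sex of the mice and the makeup of the vehicle are not stated in the labels.

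Hippocampal interneurons are a small and varied set of GABA-releasing cells that are sorted by the proteins and peptides they contain. Parvalbumin (Pvalb) marks fast-spiking basket cells that target cell bodies, somatostatin (Sst) marks cells that target dendrites, and vasoactive intestinal peptide (Vip) marks cells of which many inhibit other interneurons. Lhx6 is a transcription factor kept by interneurons born in the medial ganglionic eminence, to which the Pvalb and Sst cells belong, while Vip cells and most Cck basket cells come from the caudal ganglionic eminence. Several of the markers are not restricted to interneurons: pyramidal cells also carry Cck mRNA, mossy cells of the hilus in mice contain calretinin (Calb2), and Cajal-Retzius cells contain both calretinin and reelin (Reln).

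Of the 9 genes, 4 encode peptide transmitters. Somatostatin is the classic example of a peptide gene switched on through cyclic AMP, by way of the CREB protein and the motif TGACGTCA in its promoter, and for that reason the promoter stretches of the peptide genes that hold this motif or its core are shown. The sequences are from RefSeq on GRCm38.p6, run 5′ to 3′ on the gene's strand, and have the match in capitals.
Sst, chr16:23890859-23890918, minus strand: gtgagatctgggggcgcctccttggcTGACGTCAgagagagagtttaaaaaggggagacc
Vip, chr10:5639113-5639169, plus strand: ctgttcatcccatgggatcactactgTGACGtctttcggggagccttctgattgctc
Cck, chr9:121495711-121495767, minus strand: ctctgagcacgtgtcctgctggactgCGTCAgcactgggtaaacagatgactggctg
The match starts 48 bases before the RefSeq start of Sst, 79 bases before that of Vip and 47 bases before that of Cck. The GENCODE M21 gene model of Sst, whose positions are given further on, begins farther upstream and takes in the match. Windows from 250 bases before to 50 bases after the RefSeq start were searched on both strands for TGACGTCA and for its core TGACG, which reads CGTCA on the other strand and lies within each TGACGTCA. RefSeq windows were matched for 8 of the 9 genes, 11 windows in all. The full motif was in the Sst window alone, and 1.79% of 32851 windows of the same length hold it. The core was in the windows of Sst, Vip, Cck and Nos1, against 20.8% of all windows. The counts described here do not measure promoters, and a match is a description of these letters only.

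The 16 libraries held 24815581 to 31266644 counted reads, and values are given as CPM, read counts scaled to the size of the library (counts per 1000000 reads, TMM scaling). The common biological coefficient of variation between mice was 0.0988. Ttr, the transthyretin gene that choroid plexus expresses strongly, ran between 45.8 and 6136 CPM over the 16 mice and lay under 100 CPM in mice 17 and 19 of the beta-sitosterol 6 h group and in mice 5 (1 h) and 14 (6 h) of the vehicle groups. Choroid plexus adjoins the hippocampus. The summed CPM of 16 choroid plexus genes was 1905 to 4075 in beta-sitosterol mice and 339 to 10249 in vehicle mice at 1 h, and 374 to 6900 in beta-sitosterol mice and 352 to 5637 in vehicle mice at 6 h. The labelled tissue was checked on 10 genes of pyramidal and granule cells, which summed to between 7506 and 9899 CPM in the 16 mice with none at 0. A list of 10 genes shared by GABA neurons, with the GABA-synthesizing enzymes Gad1 and Gad2 among them, summed to between 994 and 1284 CPM, again with none at 0. Genes listed for other brain regions were measured too. A list of 9 thalamus genes, Calb2 among them, summed to between 137 and 259 CPM. A list of 9 genes of striatum and septum summed to between 127 and 213 CPM.

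All 9 markers were well measured, with 259 reads (Vip) to 4788 reads (Cck) in a single library. Per kilobase of exon, the order of the mean level over 16 mice was Sst (173 ± 22.4 CPM per kb, SD), Cck (111 ± 14.3), Npy (57.7 ± 8.43), Calb2 (24.7 ± 3.76), Pvalb (22.2 ± 3.61), Nos1 (11.4 ± 0.964), Vip (3.62 ± 0.547), Lhx6 (3.53 ± 0.298) and Reln (3.11 ± 0.420). Sst was above Cck, Cck above Npy, Npy above Calb2, Pvalb above Nos1 and Nos1 above Vip in 16 of 16 mice. Calb2 and Pvalb were not separated beyond the spread between mice, since Calb2 was the higher in 11 of 16, and neither were Vip and Lhx6, where Vip was the higher in 9 of 16. Lhx6 exceeded Reln in 14 of 16 mice.

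This order depends in part on the length each gene is divided by, because the union of all annotated exons is long for Reln (23738 bases, against 11699 for its longest transcript) and for Cck (1305 against 799). With the longest transcript as length, Cck stood at 181 and Sst at 173 CPM per kb, with Cck the higher in 9 of 16 mice. Reln then stood at 6.32, above Lhx6 and Vip, which were both at 4.87 CPM per kb, and it exceeded Lhx6 in 15 of 16 mice. Npy, Calb2, Pvalb and Nos1 kept their places on either length, but on the longest transcript Calb2 exceeded Pvalb in 14 of 16 mice.

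**Figure D1:**
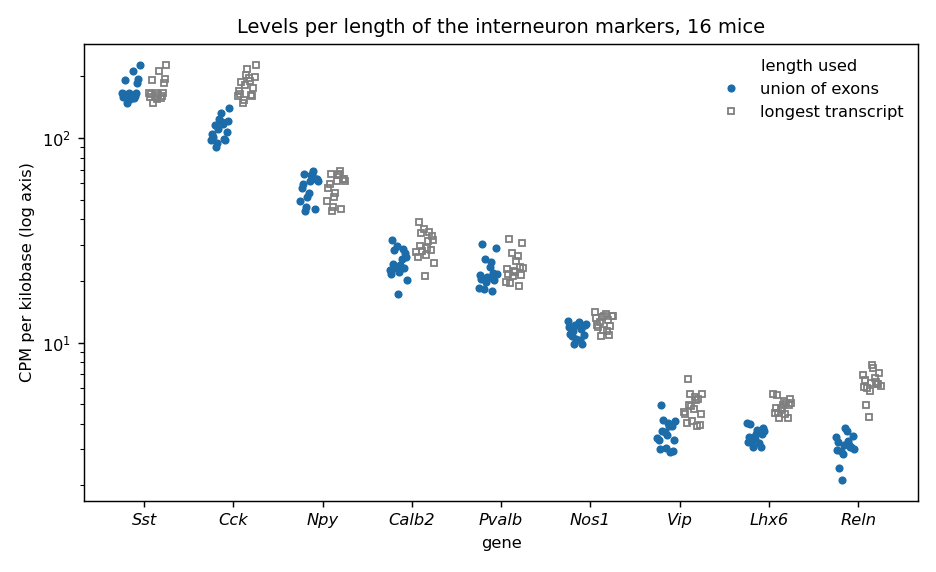
Level of each interneuron marker per kilobase of its own length, in CPM per kilobase on a log axis, with 1 point per mouse (16 mice). Filled circles divide by the union of exons and open squares by the longest transcript; Sst and Cck are highest on both, and Vip, Lhx6 and Reln lowest.

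The markers differed in how tightly mice of one group resembled each other. The coefficient of variation within groups was smallest for Lhx6 (8.23%) and Nos1 (8.99%), and largest for Pvalb (17.7%), Calb2 (16.9%) and Vip (16.8%). The highest mouse exceeded the lowest by 1.30 times for Nos1 and by 1.84 times for Calb2, and the other genes lay between these. Pvalb and Vip had the same extremes, both highest in beta-sitosterol 1 h mouse 9 and lowest in beta-sitosterol 6 h mouse 20. That mouse 20 had the highest Npy level of all 16. Vehicle 1 h mouse 2 was lowest for Sst, Npy and Cck, and vehicle 1 h mouse 3 for Reln, Lhx6 and Nos1. Vehicle 6 h mouse 14 was highest for Sst and Cck, and beta-sitosterol 1 h mouse 6 for Lhx6 and Nos1.

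**Figure D2:**
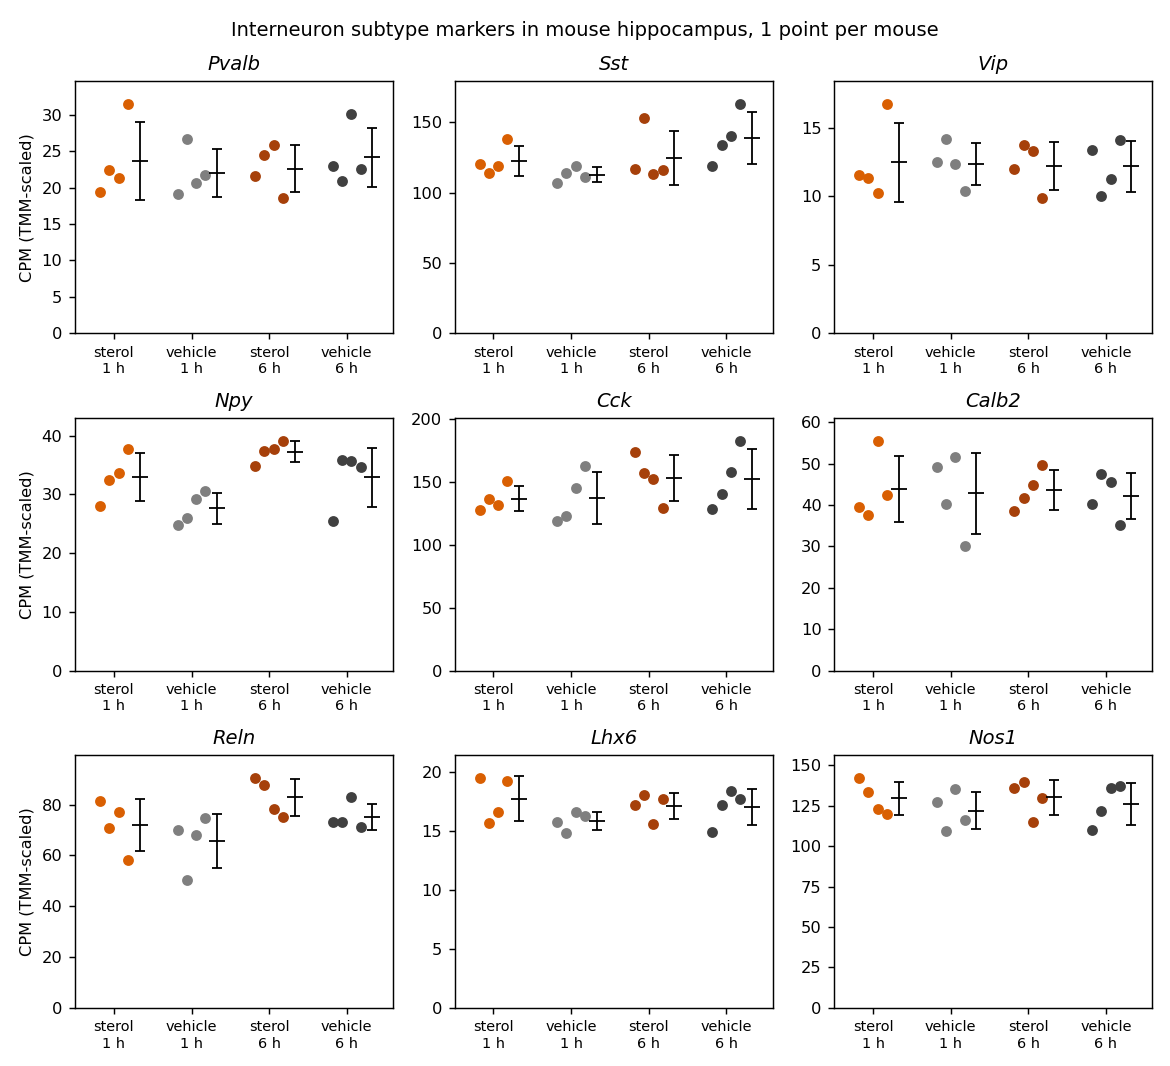
CPM of each marker in every mouse, with 1 panel per gene, 4 points per group and the group mean ± SD beside them; sterol stands for beta-sitosterol, and each y axis starts at 0. In all 9 panels the beta-sitosterol and vehicle points of the same time overlap.

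The first question of the design is whether the sterol changed these genes within 1 h. None of the 9 markers was called at 1 h, where 0% of the 17055 genes tested were called. A call is an adjusted p (Benjamini-Hochberg) under 0.05 in edgeR's quasi-likelihood test. At an unadjusted p under 0.05 the same test counted 1 marker, Npy, against 10.2% of all genes. The beta-sitosterol and vehicle values overlapped for all 9 markers, while 4.99% of all genes had values that did not overlap. The log2 fold change was above 0 for 8 markers and below 0 for Cck, against 48.7% of all genes above 0, with a median of 0.098 over the markers and -0.0039 over all genes. The 95% intervals of the 9 fold changes lay within 0.805 to 1.39. The smallest adjusted p among the markers was 0.441, which does not show that the groups were equal.

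At 6 h, edgeR's test again called none of the 9 markers and 0% of all genes. No marker had an unadjusted p under 0.05, against 12.1% of all genes. Values overlapped for all 9 markers, and did not overlap for 8.97% of all genes. The log2 fold change was above 0 for 7 markers and below 0 for Sst and Pvalb, where 46.1% of all genes were above 0. The median was 0.010, against -0.014 over all genes, and the 95% intervals of the fold changes lay within 0.741 to 1.32. Counts by DESeq2 and by limma on the deposited normalized values were 0 of 9 at both times, but DESeq2 gave no adjusted p for Calb2, Pvalb, Vip, Lhx6 and Npy at 1 h and at 6 h.

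With both times averaged, 8 beta-sitosterol mice against 8 vehicle mice, edgeR's test called 0 of 9 markers and 0.0762% of all genes, or 13 genes. This count over all genes was unstable, between 0 and 1206 when single mice were left out, and highest without vehicle 1 h mouse 5. Npy had an unadjusted p under 0.05, against 20.5% of all genes. Limma called 0 markers and 103 of all genes, and DESeq2 called 1 marker, Npy, and 1283 of all genes. The log2 fold change was above 0 for 8 markers and below 0 for Sst, where 46.1% of all genes were above 0, with a median of 0.042, against -0.013 over all genes.

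Npy encodes neuropeptide Y, a transmitter of dendrite-targeting and neurogliaform interneurons that dampens excitatory transmission (chr6:49822710-49829507, plus strand, in GRCm38 as are all positions below). Npy was measured at 28.0, 32.4, 33.7 and 37.8 CPM in beta-sitosterol mice 6, 7, 8 and 9 at 1 h, against 24.9, 25.9, 29.1 and 30.5 CPM in vehicle mice 2, 3, 4 and 5. At 6 h it was measured at 34.8, 37.4, 37.8 and 39.1 CPM in beta-sitosterol mice 17, 18, 19 and 20, against 25.4, 35.8, 35.7 and 34.7 CPM in vehicle mice 11, 12, 13 and 14. At 1 h the groups overlapped because mouse 6 lay below vehicle mice 4 and 5. At 6 h the overlap came from mouse 17, which lay below vehicle mice 12 and 13, and vehicle mouse 11 was the lowest of the 8. Beta-sitosterol over vehicle, the log2 fold change was 0.25 (SE 0.105) at 1 h, or 1.19-fold with a 95% interval of 1.02 to 1.39, with an unadjusted p of 0.0263 and an adjusted p of 0.441 by edgeR's quasi-likelihood test. The 6 h value was 0.18 (SE 0.104, edgeR adjusted p = 0.491), and 0.075 without vehicle mouse 11. In bulk tissue, fewer cells of a type and less RNA per cell cannot be told apart, so none of these values says which of them a level reflects.

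Averaged over both times, Npy stood 1.16-fold higher in beta-sitosterol mice, with a 95% interval of 1.04 to 1.30 (log2 fold change 0.22, SE 0.0736, unadjusted p = 0.00871, edgeR adjusted p = 0.113). DESeq2's Wald test put the same difference past the threshold (log2 fold change 0.22, adjusted p = 0.0405), as it did for 1283 of all genes. Over all ways of processing tried, the averaged log2 fold change of Npy stayed between 0.16, without vehicle 6 h mouse 11, and 0.28, without the libraries with low Ttr, and the adjusted p between 0.0405 and 0.204. With the choroid plexus level as a covariate it was 0.21 (edgeR adjusted p = 0.108). The difference between the effects at 6 h and at 1 h was -0.073 (SE 0.147), with a 95% interval of -0.38 to 0.24 on the log2 scale.

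Some gene lists of other cell types or tissues had one-sided values between the same groups, and others did not. In the averaged comparison 8 of 8 astrocyte genes had a log2 fold change below 0 (median -0.14) and 9 of 10 pyramidal and granule cell genes one above 0 (median 0.15), none of them called by edgeR. The astrocyte genes summed to 5716 to 6165 CPM in beta-sitosterol mice and 6256 to 7179 CPM in vehicle mice at 1 h, and to 5259 to 5948 CPM in beta-sitosterol mice and 5681 to 6370 CPM in vehicle mice at 6 h. The pyramidal and granule cell genes summed to 8266 to 8562 CPM in beta-sitosterol mice and 7506 to 9899 CPM in vehicle mice at 1 h, and to 7994 to 9207 CPM in beta-sitosterol mice and 7977 to 8809 CPM in vehicle mice at 6 h. Microglial genes, 8 of 8 below 0 in the averaged comparison (median -0.16), summed to 318 to 352 CPM in beta-sitosterol mice and 351 to 399 CPM in vehicle mice at 1 h, and to 275 to 319 CPM in beta-sitosterol mice and 306 to 345 CPM in vehicle mice at 6 h. Oligodendrocyte genes, 9 of 9 below 0 (median -0.13), summed to 5528 to 7381 CPM in beta-sitosterol mice and 5304 to 9709 CPM in vehicle mice at 1 h, and to 4942 to 6229 CPM in beta-sitosterol mice and 5761 to 7577 CPM in vehicle mice at 6 h. Endothelial genes, 6 of 7 below 0 (median -0.12), summed to 192 to 215 CPM in beta-sitosterol mice and 221 to 232 CPM in vehicle mice at 1 h, and to 203 to 230.1 CPM in beta-sitosterol mice and 207 to 243 CPM in vehicle mice at 6 h. At 1 h the endothelial sums and the astrocyte sums did not overlap between treatments. Of all single genes 4.99% did not, an unlike measure, and no such share was computed for sums of lists. In the averaged comparison 16 of 16 choroid plexus genes (median -0.64) and 7 of 8 tested thalamus genes (median -0.19) were below 0. The thalamus genes had 7 of 8 below 0 at 1 h (median -0.52) and 7 of 8 above 0 at 6 h (median 0.096). Blood genes were above 0 in 5 of 5 (median 0.093). Less one-sided, with the markers they contain counted, were Cajal-Retzius cells (3 above, 5 below), striatum and septum (3 above, 5 below) and hilar mossy cells (3 above, 1 below). The markers Reln (0.14) and Calb2 (0.042) are among the 3 Cajal-Retzius genes above 0, and Calb2 is among the 3 of mossy cells. Calb2 is also the 1 thalamus gene above 0 at 1 h and in the averaged comparison. None of these genes was called by edgeR or listed at 0 in all mice, and their part in the marker values was not tested.

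Sst (chr16:23889573-23890958, minus strand), the somatostatin precursor gene with the full cyclic AMP motif shown above, was measured at 120.2, 114, 119 and 138 CPM in beta-sitosterol mice 6, 7, 8 and 9 at 1 h, against 107, 114, 119 and 111 CPM in vehicle mice 2, 3, 4 and 5. At 6 h it was measured at 117, 153, 113 and 116 CPM in beta-sitosterol mice 17, 18, 19 and 20, against 119, 134, 140.1 and 163 CPM in vehicle mice 11, 12, 13 and 14. Beta-sitosterol mouse 18 stood apart from the other 3 of its group, which were all below every vehicle mouse at 6 h. For Sst the log2 fold change was 0.12 (SE 0.0996, edgeR adjusted p = 0.695) at 1 h and -0.15 (SE 0.0993, edgeR adjusted p = 0.545) at 6 h. The 6 h value was -0.27 without mouse 18 (edgeR adjusted p = 0.442), -0.069 without vehicle mouse 14 (edgeR adjusted p = 0.815) and 0.047 without the libraries with low Ttr. Removing the low-Ttr libraries leaves mice 18 (153 CPM) and 20 (116 CPM) as the beta-sitosterol 6 h group, so such values rest heavily on mouse 18. The 1 h value was 0.058 without beta-sitosterol mouse 9. The difference between the effects at 6 h and at 1 h was -0.27 (SE 0.141, unadjusted p = 0.0677, edgeR adjusted p = 1.00), and -0.066 without the libraries with low Ttr.

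Vip (chr10:5639218-5647617, plus strand), the precursor gene of vasoactive intestinal peptide, averaged 12.5 ± 2.89 CPM in beta-sitosterol mice and 12.4 ± 1.53 CPM in vehicle mice at 1 h (SD, n = 4 each). At 6 h the averages were 12.2 ± 1.74 CPM in beta-sitosterol mice and 12.2 ± 1.87 CPM in vehicle mice. The log2 fold changes were 0.012 (SE 0.150) and 0.0037 (SE 0.150) at 1 h and 6 h, so the group means differed by far less than the spread between mice. The single mice ran from 9.87 CPM in beta-sitosterol 6 h mouse 20 to 16.7 CPM in beta-sitosterol 1 h mouse 9, and the 95% interval of the averaged fold change was 0.861 to 1.17.

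Cck (chr9:121489824-121495694, minus strand), the cholecystokinin gene of basket cells and of pyramidal cells, averaged 137 ± 9.87 CPM in beta-sitosterol mice and 137 ± 20.3 CPM in vehicle mice at 1 h. At 6 h Cck averaged 153 ± 18.3 CPM in beta-sitosterol mice and 152 ± 23.5 CPM in vehicle mice. With log2 fold changes of -0.0053 (SE 0.117) at 1 h and 0.010 (SE 0.117) at 6 h, the 95% interval of the averaged fold change was 0.887 to 1.13. Vehicle mice spanned 119 to 162 CPM at 1 h and 128 to 182 CPM at 6 h, and the highest at each time, mice 5 and 14, were the vehicle mice with Ttr under 100 CPM. The highest beta-sitosterol mouse at 6 h, mouse 17 at 174 CPM, had Ttr under 100 CPM too. Mouse 19, the remaining library with Ttr under 100 CPM, measured 152 CPM, below mouse 18 of its group at 157 CPM. With the choroid plexus covariate the log2 fold change of Cck was 0.012 at 1 h and -0.079 at 6 h, and without the libraries with low Ttr it was 0.086 at 1 h and 0.017 at 6 h.

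Pvalb and Calb2 encode calcium-binding proteins. Pvalb (chr15:78191114-78206400, minus strand), which buffers calcium in fast-spiking cells, averaged 23.6 ± 5.38 CPM in beta-sitosterol mice and 22.0 ± 3.30 CPM in vehicle mice at 1 h. At 6 h Pvalb averaged 22.6 ± 3.22 CPM in beta-sitosterol mice and 24.1 ± 4.09 CPM in vehicle mice. Its log2 fold change was 0.098 (SE 0.158, edgeR adjusted p = 0.855) at 1 h, -0.095 (SE 0.158, edgeR adjusted p = 0.838) at 6 h and 0.0014 averaged. At each time 1 mouse stood highest by a margin, beta-sitosterol mouse 9 at 31.4 CPM and vehicle mouse 13 at 30.1 CPM, and the averaged fold change had a 95% interval of 0.849 to 1.18.

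Calb2 (chr8:110137502-110168210, minus strand), the calretinin gene of some interneurons, mossy cells and Cajal-Retzius cells, averaged 43.8 ± 8.01 CPM in beta-sitosterol mice and 42.8 ± 9.73 CPM in vehicle mice at 1 h. At 6 h Calb2 averaged 43.7 ± 4.79 CPM in beta-sitosterol mice and 42.1 ± 5.55 CPM in vehicle mice. Calb2 had a log2 fold change of 0.032 (SE 0.161) at 1 h and 0.052 (SE 0.161) at 6 h, and the 1 h value turned to -0.10 without vehicle mouse 5 and likewise without beta-sitosterol mouse 8. Calb2 had the largest ratio of highest to lowest mouse of the 9 genes, 1.84, from 30.2 CPM in vehicle 1 h mouse 5 to 55.5 CPM in beta-sitosterol 1 h mouse 8. The averaged fold change had a 95% interval of 0.869 to 1.22.

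Lhx6 (chr2:36081953-36105408, minus strand), the transcription factor of interneurons from the medial ganglionic eminence, was measured at 19.5, 15.7, 16.6 and 19.2 CPM in beta-sitosterol mice 6, 7, 8 and 9 at 1 h, against 15.8, 14.8, 16.6 and 16.3 CPM in vehicle mice 2, 3, 4 and 5. Mice 6 and 9 stood above all 4 vehicle mice, and mouse 7 below 3 of them. Lhx6 had a log2 fold change of 0.16 (SE 0.0816, unadjusted p = 0.0645, edgeR adjusted p = 0.511) at 1 h and 0.0062 (SE 0.0815, edgeR adjusted p = 0.983) at 6 h. At 6 h Lhx6 averaged 17.1 ± 1.08 CPM in beta-sitosterol mice and 17.1 ± 1.53 CPM in vehicle mice. Its exons overlap those of Gm27953 on the same strand, and reads there could belong to either.

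Reln (chr5:21884454-22344702, minus strand) encodes reelin, an extracellular protein that positions neurons during development and is released by interneurons and Cajal-Retzius cells in the adult. It was measured at 81.5, 70.9, 77.1 and 58.1 CPM in beta-sitosterol mice 6, 7, 8 and 9 at 1 h, against 69.8, 50.5, 68.0 and 74.6 CPM in vehicle mice 2, 3, 4 and 5. At 6 h it was measured at 90.4, 87.5, 78.4 and 75.0 CPM in beta-sitosterol mice 17, 18, 19 and 20, against 73.1, 73.0, 82.9 and 71.3 CPM in vehicle mice 11, 12, 13 and 14. All 4 beta-sitosterol mice at 6 h lay above vehicle mice 11, 12 and 14, and the overlap came from vehicle mouse 13. Reln had a log2 fold change of 0.13 (SE 0.114, edgeR adjusted p = 0.711) at 1 h, 0.14 (SE 0.113, edgeR adjusted p = 0.637) at 6 h and 0.14 averaged (SE 0.0804, unadjusted p = 0.111, edgeR adjusted p = 0.358). Single mice decided the size of the 1 h value, which was 0.023 without vehicle mouse 3, 0.064 without beta-sitosterol mouse 6, 0.20 without vehicle mouse 5 and 0.22 without beta-sitosterol mouse 9. The averaged value was 0.082 without vehicle mouse 3, and none of these passed the threshold.

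Nos1 (chr5:117781032-117958840, plus strand), the neuronal nitric oxide synthase of neurogliaform, ivy and long-range cells, averaged 129.6 ± 10.1 CPM in beta-sitosterol mice and 122 ± 11.7 CPM in vehicle mice at 1 h. At 6 h Nos1 averaged 130.2 ± 10.8 CPM in beta-sitosterol mice and 126 ± 12.9 CPM in vehicle mice. Nos1 had a log2 fold change of 0.087 (SE 0.0828, edgeR adjusted p = 0.734) at 1 h and 0.045 (SE 0.0828, edgeR adjusted p = 0.854) at 6 h. Leaving out single mice gave 0.037 (vehicle mouse 3) to 0.14 (vehicle mouse 4) at 1 h. The 95% interval of the averaged fold change, 0.961 to 1.14, was the narrowest of the 9 after that of Lhx6. Exons of Reln overlap Gm10475 and those of Nos1 overlap Gm26995 on the opposite strand, and without the strand setting of the counting such reads cannot be told apart.

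**Figure D3:**
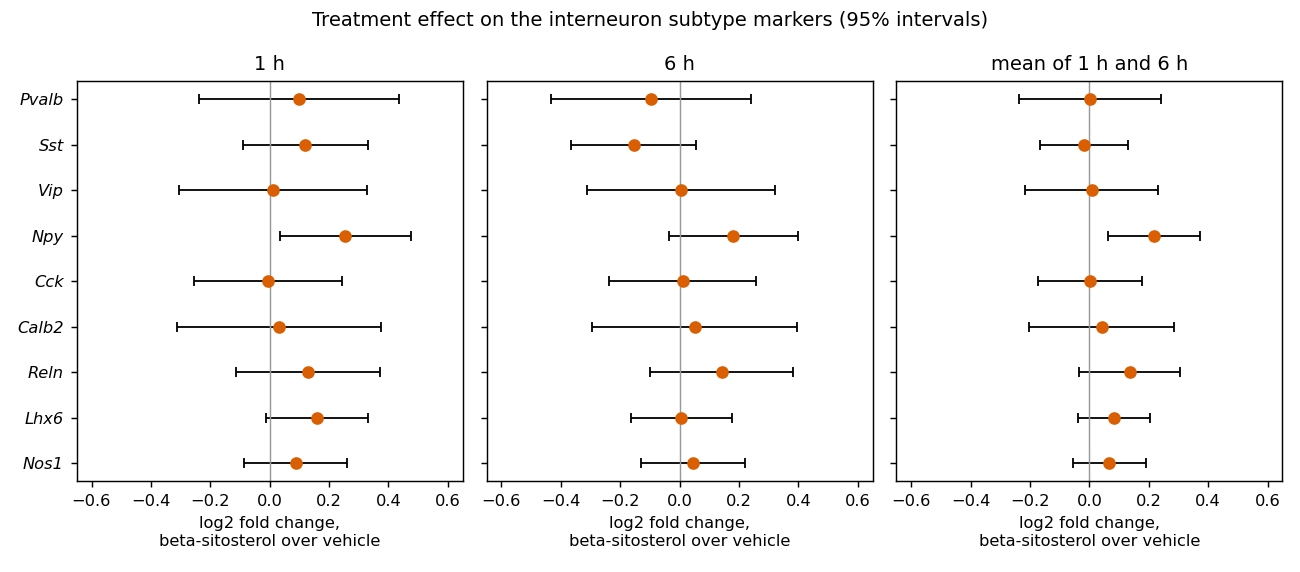
Log2 fold change of each marker, beta-sitosterol over vehicle, in panels for 1 h, 6 h and the average of both, with bars for the 95% interval from edgeR's fit. The intervals of 8 markers span 0 in all 3 panels; that of Npy lies above 0 at 1 h and in the average, where its adjusted p is 0.441 and 0.113.

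A formal test of whether the sterol effect differed between 6 h and 1 h called 0 of 9 markers and 0% of all genes by edgeR, with 0 markers at an unadjusted p under 0.05, against 1.92% of all genes. DESeq2 and limma also called 0. The difference was below 0 for 6 markers and above 0 for 3, where 46.8% of all genes were above 0, with a median of -0.042, against -0.0076 over all genes. The 95% intervals, from 0.629 to 1.42 as a ratio of the 2 fold changes, were wider than those of the single comparisons.

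The second comparison of the design is time after injection. In vehicle mice, 6 h against 1 h, edgeR called 0 of 9 markers and 0% of all genes, while Sst and Npy had an unadjusted p under 0.05, against 10.6% of all genes. Values overlapped between the times for all 9 markers, and did not overlap for 4.81% of all genes. DESeq2 and limma called 0. The log2 fold change was above 0 for 7 markers, against 51.3% of all genes. Sst averaged 139 ± 18.3 CPM in vehicle mice at 6 h and 113 ± 5.10 CPM in vehicle mice at 1 h, a log2 fold change of 0.30 (SE 0.0995, unadjusted p = 0.00814, edgeR adjusted p = 0.341). The overlap was slight: vehicle mouse 11 at 6 h and vehicle mouse 4 at 1 h both measured 119 CPM, and the other 3 mice at 6 h were above every mouse at 1 h. Leaving out vehicle mouse 14, the highest, gave 0.21 (edgeR adjusted p = 0.588). Npy averaged 32.9 ± 5.00 CPM in vehicle mice at 6 h and 27.6 ± 2.65 CPM in vehicle mice at 1 h, a log2 fold change of 0.25 (SE 0.105, edgeR adjusted p = 0.419).

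In beta-sitosterol mice, 6 h against 1 h, edgeR called 0 of 9 markers and 0% of all genes, and no marker had an unadjusted p under 0.05, against 6.97% of all genes. DESeq2 and limma called 0, and values overlapped for all 9 markers but not for 5.28% of all genes. The log2 fold change was above 0 for 5 markers, against 46.8% of all genes. The largest log2 fold changes were 0.20 for Reln (SE 0.114), 0.18 for Npy (SE 0.104) and 0.17 for Cck (SE 0.117), with edgeR adjusted p of 0.754, 0.755 and 0.811 in that order. Without 1 mouse they were as low as 0.11 for Reln (without mouse 9), 0.11 for Npy (without mouse 6) and 0.099 for Cck (without mouse 17), and the value of Cck was 0.031 with the choroid plexus covariate and 0.076 without the libraries with low Ttr. Sst had a value of 0.024 (SE 0.0995). The mice of each group are shared between the treatment and time comparisons, so these values are not independent of those above. The labels give no time of day for the dissections, which cannot be told apart from time after injection.

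Genes that accompany the markers were counted in 6 lists. Among 10 genes shared by GABA neurons, edgeR called none in any comparison. At 1 h 9 of the 10 had a log2 fold change above 0 (median 0.092) and at 6 h 5 of 10 (median -0.048), against medians of -0.0039 and -0.014 over all genes. In vehicle mice, 6 h against 1 h, 10 of 10 were above 0, against 51.3% of all genes, with a median of 0.23, against 0.0045 over all genes. Of the 10, 5 had an unadjusted p under 0.05, against 10.6% of all genes. Gad1, which makes most brain GABA, averaged 311 ± 29.8 CPM in beta-sitosterol mice and 267 ± 18.7 CPM in vehicle mice at 1 h, a log2 fold change of 0.22 (SE 0.0799, edgeR adjusted p = 0.423). Over both times it was 0.16 (SE 0.0564, edgeR adjusted p = 0.114), and Gad2, which supplies GABA for synaptic release, had 0.17 (SE 0.0691, edgeR adjusted p = 0.179). Both were above 0 in each of the 6 comparisons except the difference of the effects.

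Lists of the lineages in which interneurons arise gave these values. Of 14 genes of the caudal ganglionic eminence lineage, 13 had a log2 fold change above 0 in the averaged comparison (median 0.13, against -0.013 over all genes), 6 at an unadjusted p under 0.05 and higher, against 11.5% of all genes, and none was called. Calb1, the calcium buffer calbindin, averaged 129 ± 10.3 CPM in beta-sitosterol mice and 114 ± 8.13 CPM in vehicle mice at 1 h, and 135 ± 9.05 CPM in beta-sitosterol mice and 116 ± 8.17 CPM in vehicle mice at 6 h. Its averaged log2 fold change of 0.20 (SE 0.0482) had an edgeR adjusted p of 0.0555, and that of Cnr1, the cannabinoid receptor of Cck basket cells, was 0.17 (SE 0.0415) at an edgeR adjusted p of 0.0609. Calb1 is also a gene of dentate granule cells. Calb1 and Prox1, both in the caudal list, also stand in the pyramidal and granule cell list, whose median was 0.15. The split between interneurons and principal cells was not tested.

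Of 13 tested genes of the medial ganglionic eminence lineage, Lhx6 among them, 11 were above 0 at 1 h (median 0.11) and 3 at 6 h (median -0.035), none called by edgeR. The difference between the effects at 6 h and 1 h was below 0 for 11 of the 13 (median -0.14, against -0.0076 over all genes), 3 of them at an unadjusted p under 0.05, against 1.92% of all genes, and none was called. In the averaged comparison 6 were above 0 and 7 below 0, with a median of -0.0012. Sox6, a transcription factor of that lineage that glial precursors also express, averaged 22.2 ± 1.81 CPM in beta-sitosterol mice and 26.1 ± 2.34 CPM in vehicle mice at 1 h, and 18.4 ± 1.05 CPM in beta-sitosterol mice and 20.7 ± 1.51 CPM in vehicle mice at 6 h. Its averaged log2 fold change was -0.20 (SE 0.0538, edgeR adjusted p = 0.0672), opposite in sign to that of Lhx6 (0.083, SE 0.0577). Kcnc2, a potassium channel of fast-spiking cells, had 0.11 (SE 0.0484, edgeR adjusted p = 0.208).

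Receptors for the 4 peptides gave 6 of 11 tested genes above 0 in the averaged comparison, with a median of 0.038 and none called. Npy1r and Npy2r, the main receptors of neuropeptide Y in the hippocampus, had averaged log2 fold changes of 0.16 (SE 0.0565, edgeR adjusted p = 0.132) and 0.18 (SE 0.0667, edgeR adjusted p = 0.134). At 6 h Npy2r averaged 70.7 ± 4.33 CPM in beta-sitosterol mice and 60.1 ± 3.98 CPM in vehicle mice (log2 fold change 0.23, SE 0.0941, edgeR adjusted p = 0.362).

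The pathways downstream of the last members showed small values. Of 11 reelin pathway genes 8 were above 0 (median 0.031) and of 11 nitric oxide pathway genes 7 (median 0.027) in the averaged comparison, none called by edgeR. Pafah1b1, the Lis1 protein that acts on dynein downstream of reelin, averaged 663 ± 23.3 CPM in beta-sitosterol mice and 593 ± 26.9 CPM in vehicle mice at 6 h, with an averaged log2 fold change of 0.14 (SE 0.0353, edgeR adjusted p = 0.0611). Rapgef1, an exchange factor in the reelin cascade whose exons overlap Gm9823 on the opposite strand, had -0.10 (SE 0.0330, edgeR adjusted p = 0.102). Gucy1b1, a subunit of the nitric oxide receptor guanylate cyclase, had 0.14 (SE 0.0357, edgeR adjusted p = 0.0645). Ddah1, which degrades an endogenous inhibitor of nitric oxide synthase, had -0.16 (SE 0.0479, edgeR adjusted p = 0.0866). The summed CPM of the caudal list did not overlap between beta-sitosterol and vehicle mice at 1 h (671 to 692 against 530 to 669). Nor did it at 6 h (716 to 760 against 600 to 675). The medial list did not overlap at 1 h (483.8 to 494 against 442 to 483.3), nor the reelin list at 6 h (1702 to 1767 against 1594 to 1697). The other sums of the 6 lists overlapped. Among single genes, 4.99% at 1 h and 8.97% at 6 h did not overlap, and no such share was computed for sums of lists. A sum weighs its most abundant genes most. At 1 h Cnr1, in the caudal sum, averaged 218 CPM in beta-sitosterol mice and 194 CPM in vehicle mice. Calb1, in the caudal sum and also in the pyramidal and granule cell list, averaged 129 and 114 CPM in that order.

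**Figure D4:**
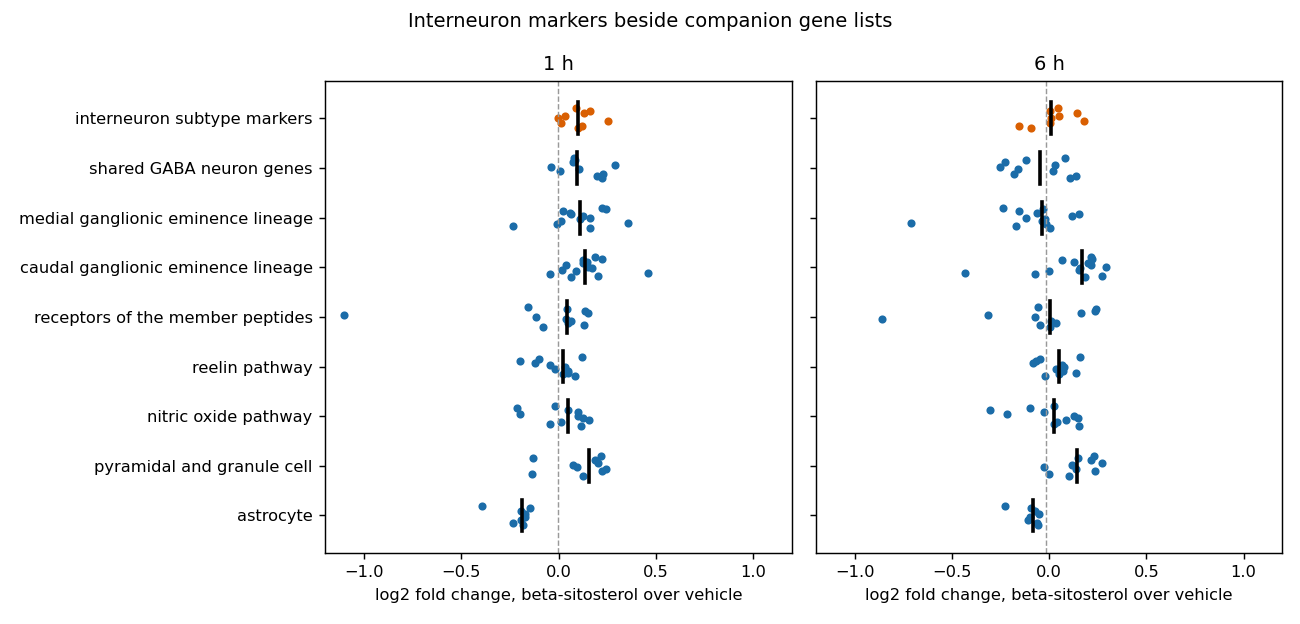
Log2 fold change of each gene, beta-sitosterol over vehicle, at 1 h and 6 h, for the 9 interneuron markers, the 6 companion lists, and the lists of principal cells and astrocytes; black bars are list medians and the dashed line is the median of all 17055 genes. The marker medians are 0.098 at 1 h and 0.010 at 6 h, and 8 of 8 astrocyte genes lie below 0 at both times.

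For each marker the 3 genes whose log-CPM followed it most closely over the 16 mice were found by Pearson's r among 14572 genes with a mean of at least 1 CPM. Picking the highest of so many values over 16 libraries gives a high r by selection alone. How high was not tested, so the genes named are a description and not shown to be partners of the markers. The 16 libraries differed in read depth and in Ttr, and the part of either in these values was not tested. Npy was followed by Rab3a (r = 0.956, Spearman's rho = 0.903), Prkaca and Fto, Cck by Npdc1 (r = 0.945, rho = 0.941), Il17d and Sh3bp1, and Reln by Mpdz (r = 0.936, rho = 0.818), Afdn and Cacna1b. Pvalb was followed by Efhd2 (r = 0.905, rho = 0.835), Kctd2 and Ptger3, Vip by Lypd6b (r = 0.895, rho = 0.906), Serpini1 and Vxn, and Sst by Fam20c (r = 0.878, rho = 0.785), Vstm2l and Dbnl. Lhx6 was followed by Crtac1 (r = 0.865, rho = 0.879), Psmd6 and Armc6, Nos1 by Pcsk5 (r = 0.815, rho = 0.859), Pcdh19 and Ptpre, and Calb2 by Pggt1b (r = 0.778, rho = 0.656), C3 and Zic1. No marker was among the 3 closest genes of another marker. With the group means removed first, 12 of the 27 genes were again among the 3 closest.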

How the data were processed

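RNA from the hippocampi of 16 mice, 4 per group, was sequenced after TruSeq mRNA library preparation, with RNA of an integrity number that met the authors' minimum, per the labels. The authors deposited raw read counts per Ensembl gene, and a second table of normalized signal, which holds those counts times 1 factor per library. Per the submitters' processing notes, reads on build GRCm38 were handled with TopHat2 2.0.10 and HTSeq 0.6.1p1, beside CASAVA 1.8.2, DESeq2 1.6.3 and cutadapt, with no step tied to a tool. Which strand was counted, and on which annotation release, is not given in the sources used here.

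Identifiers were named with GENCODE M21, which matched 46091 of 46603 and left 512 unmatched. The tests used the raw counts, in R 4.3.3 with edgeR 4.0.16. With filterByExpr (minimum count 10 and total 15), 17055 genes remained, and these hold 99.9% of the reads. A robust quasi-likelihood model with TMM scaling was fitted to the 16 libraries together, without covariates, with 1 mean for each group, which leaves 12 residual degrees of freedom. The threshold for a call was 0.05 for the p adjusted after Benjamini and Hochberg across the whole set of tested genes, and all tests are two-sided. Each library is a different mouse by its label, so p-values measure the spread between mice. CPM are TMM-scaled, log-CPM used a prior count of 2, and levels per kilobase used exon lengths of GENCODE M21. The main edgeR fit was run on counts simulated with its own dispersions, for beta-sitosterol against vehicle at 1 h only. The other fits and comparisons were not tested in this way. Figures were drawn from Python 3.11.15.

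The alternatives were RLE scaling, no low-count filter, a filter at a mean of 5 CPM, DESeq2 1.42.0, limma-trend (limma 3.58.1) on log2 of the deposited signal plus 1, fits restricted to the compared groups, the choroid plexus score (the mean log-CPM of its gene list) as a covariate, removal of the 4 libraries whose Ttr was below 100 CPM, removal of each mouse in turn, and the longest transcript as length. Removal of those 4 libraries left only mice 18 and 20 in the beta-sitosterol 6 h group.

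All 9 markers were named in every comparison. From each companion list the text names called genes or, with none, the 2 with the smallest p in the averaged comparison. Of the listed genes, Dlx6os1 matched several identifiers and Pde2a none. The members, lists and rules were chosen with earlier results of these data known.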

Additional observations from a re-analysis of the deposited data

Results flagged for a closer look

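Each marker in each of the 4 groups, 36 sets of 4 mice in all, was looked at for a mouse far from the others, by Dixon's 95% limit on the gap to its nearest neighbour relative to the group's range. Chance flags about 1 in 20 such sets. Sst measured 153.4 CPM in beta-sitosterol 6 h mouse 18, against 113.1 to 116.7 CPM in the other 3 mice of the group. Without that mouse the log2 fold change of Sst at 6 h, beta-sitosterol over vehicle, was -0.27 (edgeR adjusted p = 0.442), against -0.15 with it. Npy measured 25.4 CPM in vehicle 6 h mouse 11, against 34.7 to 35.8 CPM in the other 3. Without that mouse the log2 fold change of Npy at 6 h was 0.075 (edgeR adjusted p = 0.866), against 0.18 with it, and the averaged one was 0.16, against 0.22. Reln measured 82.9 CPM in vehicle 6 h mouse 13, against 71.3 to 73.1 CPM in the other 3. Without that mouse the log2 fold change of Reln at 6 h was 0.19, against 0.14 with it. None of the 3 changed whether its gene was called.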

How the results depend on the processing

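The number of markers called was 0 of 9 in the 6 comparisons under every alternative run, except that DESeq2 called 1 marker, Npy, in the averaged comparison, for which the cause was not tested. DESeq2 gave no adjusted p for 5 markers at 1 h and at 6 h, and fits restricted to the compared groups were not run for the averaged comparison and the difference of effects, which use all groups. Of 54 log2 fold changes, 9 markers in 6 comparisons, 24 kept their sign under all alternatives, Npy in every comparison among them, and 30 did not. None of those 30 exceeded 0.154 in size as first reported, so their signs were not fixed by these data. With RLE scaling, the values of opposite sign were Vip 0.00034 for the difference of effects, Calb2 0.00082 for 6 h against 1 h in beta-sitosterol mice. With no low-count filter, the values of opposite sign were Vip 0.0080 for the difference of effects, Calb2 0.0042 for 6 h against 1 h in beta-sitosterol mice. With the filter at a mean of 5 CPM, the values of opposite sign were Vip -0.0074 at 1 h, Vip -0.0042 and Lhx6 -0.00027 at 6 h, Pvalb -0.012, Vip -0.0058 and Cck -0.0083 averaged, Vip 0.0032 for the difference of effects, Calb2 0.0022 for 6 h against 1 h in beta-sitosterol mice. With DESeq2, the values of opposite sign were Calb2 0.00016 for 6 h against 1 h in beta-sitosterol mice. With limma on the normalized signal, the values of opposite sign were Vip -0.0036 and Cck 0.0038 at 1 h, Vip 0.016 for the difference of effects, Calb2 0.011 for 6 h against 1 h in beta-sitosterol mice. With the choroid plexus covariate, the values of opposite sign were Cck 0.012 at 1 h, Vip -0.024, Lhx6 -0.0060 and Cck -0.079 at 6 h, Pvalb -0.011, Vip -0.0082 and Cck -0.034 averaged, Cck -0.091 and Reln -0.029 for the difference of effects, Calb2 0.12, Sst -0.010 and Nos1 -0.0059 for 6 h against 1 h in beta-sitosterol mice, Calb2 0.0081 for 6 h against 1 h in vehicle mice. Without the libraries with Ttr under 100 CPM, the values of opposite sign were Calb2 -0.10, Vip -0.063 and Cck 0.086 at 1 h, Sst 0.047 at 6 h, Calb2 -0.029, Sst 0.080, Pvalb -0.050 and Vip -0.016 averaged, Vip 0.094, Nos1 0.079, Cck -0.069 and Reln -0.10 for the difference of effects, Calb2 0.065 and Lhx6 0.016 for 6 h against 1 h in beta-sitosterol mice, Nos1 -0.015 for 6 h against 1 h in vehicle mice. Leaving out single mice also turned signs, for the values given here with the lowest and highest value over the mice left out. At 1 h these were Cck (-0.071 to 0.086), Calb2 (-0.10 to 0.13), Vip (-0.16 to 0.092) and Pvalb (-0.070 to 0.20). At 6 h these were Lhx6 (-0.055 to 0.049), Nos1 (-0.016 to 0.10), Cck (-0.063 to 0.11), Vip (-0.078 to 0.094), Pvalb (-0.16 to 0.030) and Calb2 (-0.025 to 0.11). Averaged these were Pvalb (-0.083 to 0.064), Cck (-0.034 to 0.051), Vip (-0.078 to 0.053), Sst (-0.074 to 0.026) and Calb2 (-0.026 to 0.092). For the difference of effects these were Calb2 (-0.081 to 0.16), Vip (-0.091 to 0.16), Cck (-0.075 to 0.11), Reln (-0.077 to 0.12) and Nos1 (-0.10 to 0.013). For 6 h against 1 h in beta-sitosterol mice these were Calb2 (-0.073 to 0.13), Nos1 (-0.030 to 0.061), Sst (-0.091 to 0.086), Pvalb (-0.15 to 0.11) and Vip (-0.10 to 0.14). For 6 h against 1 h in vehicle mice these were Vip (-0.095 to 0.063), Calb2 (-0.16 to 0.076) and Nos1 (-0.0022 to 0.11).

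The number of all genes called in the averaged comparison was 13, and was 117 with RLE scaling, 96 with no filter, 497 with the filter at 5 CPM, 1283 with DESeq2, 103 with limma, 455 with the choroid plexus covariate and 0 without the libraries with low Ttr. Leaving out single mice gave 0 to 1206. At 1 h the count of 0 became 40 with DESeq2 and 13 without the libraries with low Ttr, and at 6 h it became 110 with DESeq2. For 6 h against 1 h it became 17 with DESeq2 and 2 without the libraries with low Ttr in beta-sitosterol mice, and 89 with DESeq2, 9 with no filter, 2 with the covariate and 7 without the libraries with low Ttr in vehicle mice. Leaving out single mice moved it to 1 without mouse 18 in beta-sitosterol mice, and to 7 without mouse 5 and 2 without mouse 11 in vehicle mice. No paired analysis was possible because the 4 groups share no mouse numbers. With 4 mice per group the 95% intervals of the fold changes at a single time, 0.741 to 1.39 at their widest, set what size of change could be seen, and counting error plays a smaller part at 259 or more reads a library.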
